A study of Mus musculus with 6 samples.

Results

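The 6 alpha-2,8-sialyltransferase genes of the mouse, St8sia1 to St8sia6, were taken by their symbols from tables of 24346 genes, and all 6 were found. They were measured by mRNA sequencing of retinas at postnatal day 12 in 6 libraries. In 3 triple-deficient libraries (Panky-/-;Panky-like-/-;Nrl-/-) both Panky genes were homozygous mutant, and in 3 control libraries (Panky+/-;Panky-like+/-;Nrl-/-) both were heterozygous. By these labels both groups were null for Nrl, whose product sets the rod fate in young photoreceptors, and the controls were not wild type. Nrl-null retinas are rich in cone-like photoreceptors, so these levels are not those of a wild-type retina. Panky is Ankrd33, a transcriptional co-repressor of photoreceptors, and its paralog Ankrd33b is treated as Panky-like, which the labels do not state. The design text speaks of 3 littermate pairs, but no label says which libraries form a pair or whether each library comes from 1 animal. The p-values therefore cover only the spread between these samples, which may be technical in part.

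Sialyltransferases are enzymes of the Golgi that move sialic acid from its activated form, CMP-sialic acid, to sugar chains. The alpha-2,8 family adds it to a sialic acid that is already in place, so its products are disialic, oligosialic or polysialic chains. On lipids this step opens the b-series and c-series of gangliosides, which are abundant in neuronal membranes. On proteins it builds polysialic acid, a long charged polymer best known on the neural cell adhesion molecule of the developing nervous system.

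None of the 5 members that could be tested passed the test between genotypes, where 0.0279% of all genes tested did. The other member, St8sia6, lay below the filter on low values. The order of the 6 levels was nearly the same in every library. St8sia3 was the highest with a mean of 9.03 FPKM over the 6 libraries (fragments counted per kilobase of transcript with a scaling for library size). St8sia2 followed at 7.33, St8sia5 at 6.72, St8sia1 at 3.98, St8sia4 at 0.796 and St8sia6 at 0.418 FPKM. These are levels per transcript length, so they can be set beside each other across genes. The only exchange of places was in control 2, where St8sia5 stood above St8sia2, and the ranges of those 2 genes overlapped. The ranges of all other neighbours in the order were separate. The widest step lay between St8sia1 and St8sia4, whose means differed 5.0-fold.

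**Figure D1:**
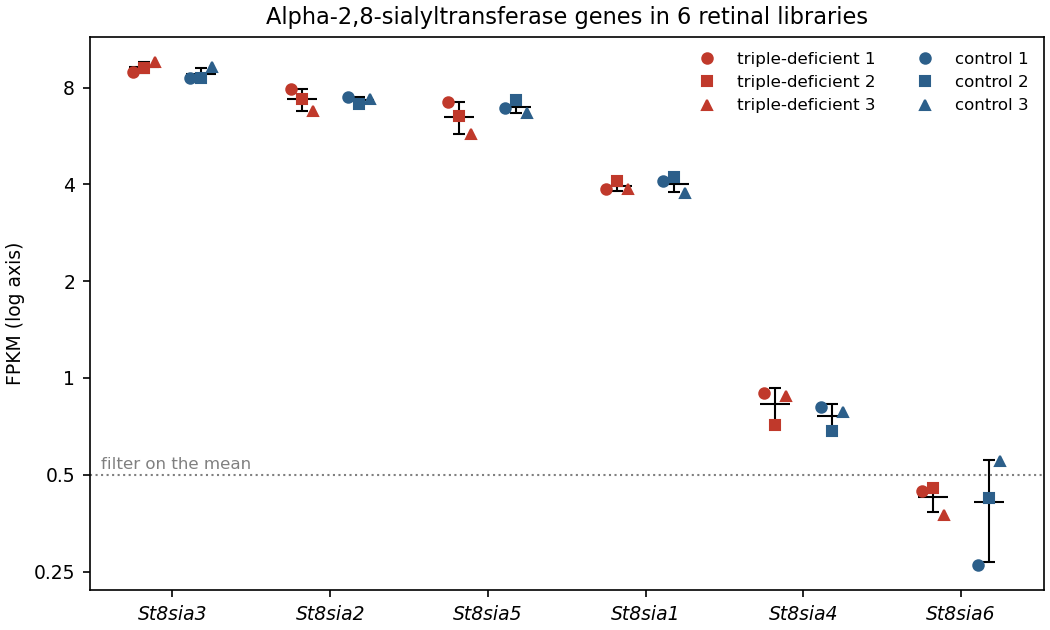
FPKM of the 6 alpha-2,8-sialyltransferase genes on a log axis, ordered by mean level, in 3 triple-deficient (red) and 3 control (blue) libraries. Black bars give mean ± SD (n = 3). The 2 colours overlap for every gene, and the 4 higher genes lie between 3.75 and 9.61 FPKM while St8sia4 and St8sia6 lie below 1.

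RefSeq start-site windows (GRCm38.p6) were matched for 4 of the 6 genes. The starts of these 4 windows all lie inside the gene spans given below, not at their outer ends. The St8sia1 and St8sia6 windows fall wholly within those spans, and the St8sia2 and St8sia4 windows in part. Shown here are the 150 bases before the window's start for both polysialyltransferase genes, whose levels differ widely, and for St8sia6, the lowest member. Each is written 5′ to 3′ on the minus strand, and capitals mark CG dinucleotides.
St8sia2, chr7:74013683-74013832: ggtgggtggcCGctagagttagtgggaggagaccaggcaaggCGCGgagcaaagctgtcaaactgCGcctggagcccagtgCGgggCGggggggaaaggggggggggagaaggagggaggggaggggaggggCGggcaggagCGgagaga
St8sia4, chr1:95667595-95667744: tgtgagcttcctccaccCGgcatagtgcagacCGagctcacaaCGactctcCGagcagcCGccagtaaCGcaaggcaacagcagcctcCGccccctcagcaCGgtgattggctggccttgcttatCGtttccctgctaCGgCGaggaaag
St8sia6, chr2:13793521-13793670: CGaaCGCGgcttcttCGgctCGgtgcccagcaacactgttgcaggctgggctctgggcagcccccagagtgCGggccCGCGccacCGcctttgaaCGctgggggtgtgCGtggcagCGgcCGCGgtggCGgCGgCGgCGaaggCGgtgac
In full windows of 300 bases (250 before and 50 after the start), St8sia1, St8sia2, St8sia4 and St8sia6 held 19, 20, 22 and 39 CG dinucleotides, against a median of 7 over 32851 such windows. Fewer CG dinucleotides were held by 71.9%, 73.5%, 76.9% and 95.6% of all windows, in the same order of genes. The lowest of the 4 genes in expression had the most, and a link between CG content and level was not tested. TAATCC, the core motif of the photoreceptor factor Crx, was searched on both strands. It was in none of these 4 windows and in 7.06% of all windows, and its absence from these letters says nothing of binding by the factor elsewhere.

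The 6 genes lie on 5 chromosomes of GRCm38 (the mm10 build), all annotated as protein-coding. St8sia1 lies at chr6:142821541-142989528, St8sia2 at chr7:73939119-74013727, St8sia4 at chr1:95587682-95667717 and St8sia6 at chr2:13651018-13794734, all on the minus strand. St8sia3 (chr18:64254359-64276146) and St8sia5 (chr18:77185847-77255450) share a chromosome and are on the plus strand. The genes span 21.8 kb for St8sia3 to 168.0 kb for St8sia1. Their longest annotated transcripts run from 5368 bases for St8sia2 to 10027 bases for St8sia4. GC content of these transcripts ran from 36.1% for St8sia4 to 54.8% for St8sia5. 

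The targeted genes were measured first. Ankrd33b was at 1.5 ± 0.265 FPKM in triple-deficient and 33.8 ± 1.45 FPKM in control libraries, and Ankrd33 at 55.6 ± 4.66 and 106 ± 2.97 FPKM (SD, n = 3 each). Nrl transcripts were present in every library, at 52.6, 51.3 and 53.7 FPKM in triple-deficient libraries 1, 2 and 3, against 49.2, 38.3 and 45.0 FPKM in control libraries 1, 2 and 3. The groups were separate for Nrl, and its change did not pass (0.25, limma adjusted p = 0.861). The data hold 1 value per gene, so which parts of Nrl and Ankrd33 are transcribed was not examined here. The 6 rod markers summed to 312 to 394 FPKM in triple-deficient and 282 to 350 FPKM in control libraries, and the 8 cone markers to 4864 to 5411 and 5280 to 5438 FPKM. The cone opsin Opn1sw was at 1406 to 1565 FPKM in triple-deficient and 1503 to 1568 FPKM in control libraries. Of the 4 rod markers tested, 2 had changes above 0 and 2 below, from -0.18 to 0.21. Gnat1, the rod transducin subunit, lay below the filter on low values. It was at 0.269 to 0.367 FPKM in triple-deficient and 0.345 to 0.514 FPKM in control libraries. Depth, estimated from the steps of low values, was about 18.2 to 27.6 M fragments in triple-deficient and 22.8 to 25.2 M in control libraries. Triple-deficient 3 stood apart in base composition. Across genes, which are not independent, its deviations from the mean of all libraries had a Spearman correlation of -0.59 with GC content, against 0.07 to 0.30 in the other libraries.

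The comparison of genotypes touches on ganglioside metabolism, a subject named in the series title, only through transcript levels. Enzyme activity, gangliosides and polysialic acid are not in these data. The comparison was made on log2(FPKM + 1) values with limma, and each change is the triple-deficient mean less the control mean on that scale. Of 14325 genes averaging 0.5 FPKM or more, 4 passed a Benjamini-Hochberg adjusted p of 0.05, which is 0.0279%. Among these 4 were the targeted genes Ankrd33b (limma adjusted p = 4.56e-07) and Ankrd33 (limma adjusted p = 0.00274). Of the 5 members tested, 0 passed and 0 had an unadjusted limma p below 0.05, where 5.09% of all genes tested did. Their adjusted p in limma ran from 0.958 to 0.998. No member had groups that did not overlap, a pattern found in 10.5% of all genes tested. The median change over the 5 members was 0.003, the same as over all genes tested, and the median size of the change was 0.056, against 0.053 over all genes. The 95% confidence intervals of the 5 changes together spanned -0.28 to 0.26 on this scale, which understates changes of a low gene such as St8sia4. With 0.1 FPKM added in place of 1, the interval of St8sia4 as a fold was 0.80 to 1.45.

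St8sia1, GD3 synthase, adds the second sialic acid to the ganglioside GM3 and is the entry to the b-series. It was at 3.87, 4.09 and 3.86 FPKM in triple-deficient libraries 1, 2 and 3, against 4.09, 4.21 and 3.75 FPKM in control libraries 1, 2 and 3. Both the lowest and the highest value were in controls, so the triple-deficient values lay inside the control range. The change of St8sia1 was -0.02 (SE 0.068, 95% interval -0.18 to 0.14, limma adjusted p = 0.984). With a pseudocount of 0.1 FPKM, which leaves the change close to a plain ratio, triple-deficient over control was 0.98-fold, with an interval of 0.86 to 1.12. The estimated depth behind these values was 630 to 960 fragments in triple-deficient and 790 to 950 in control libraries, taking the longest annotated transcript as the length.

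St8sia5 acts later on the lipids, making the c-series ganglioside GT3 and further disialylated complex gangliosides. Its values were 7.19, 6.51 and 5.72 FPKM in triple-deficient libraries 1, 2 and 3, against 6.93, 7.29 and 6.67 FPKM in control libraries 1, 2 and 3. Triple-deficient 3 and 2 held the lowest values, and triple-deficient 1 lay within the control range. The change of -0.10 was the largest in size among the members, and it did not pass (SE 0.082, 95% interval -0.28 to 0.09, limma adjusted p = 0.958). As a fold with the pseudocount of 0.1 FPKM it was 0.93, with an interval of 0.80 to 1.07. St8sia5 also had the highest GC content of the family. Without triple-deficient 3 its change was -0.02, and without triple-deficient 1 it was -0.16, with adjusted p of 0.740 or higher over all alternatives.

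St8sia3 transfers sialic acid in alpha-2,8 linkage to short chains on glycoproteins and, in assays, to GM3. It was the most abundant member in all 6 libraries, at 8.92, 9.22 and 9.61 FPKM in triple-deficient libraries 1, 2 and 3, against 8.58, 8.57 and 9.27 FPKM in control libraries 1, 2 and 3. Control 3 lay above 2 of the triple-deficient libraries, so the groups overlapped. The change was 0.06 (SE 0.059, 95% interval -0.07 to 0.20, limma adjusted p = 0.958), or 1.05-fold with an interval of 0.95 to 1.16. An antisense gene, St8sia3os, overlaps St8sia3 and was listed at 0 in all 6 libraries. The kit keeps strand, but whether the counting used it is not given in the sources used here.

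St8sia2 and St8sia4 are the polysialyltransferases, which build polysialic acid chiefly on Ncam1. In the rodent brain St8sia2 prevails during development and St8sia4 in the adult. St8sia2 was at 7.91, 7.37 and 6.77 FPKM in triple-deficient libraries 1, 2 and 3, against 7.48, 7.13 and 7.35 FPKM in control libraries 1, 2 and 3. Triple-deficient libraries held both its highest and its lowest value, and the controls lay between them. Its change was 0.003 (SE 0.067, 95% interval -0.15 to 0.16, limma adjusted p = 0.998), or 1.0-fold with an interval of 0.89 to 1.13.

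St8sia4 was at 0.899, 0.714 and 0.881 FPKM in triple-deficient libraries 1, 2 and 3, against 0.812, 0.685 and 0.785 FPKM in control libraries 1, 2 and 3. Of the triple-deficient libraries, 2 lay above every control and the other fell among them. The change was 0.06 (SE 0.089, 95% interval -0.15 to 0.26, limma adjusted p = 0.966). The scale understates changes at such levels, and with the pseudocount of 0.1 FPKM the fold was 1.08, with an interval of 0.80 to 1.45. That is the widest interval of the tested members as a fold, and about 150 to 250 fragments in triple-deficient and 170 to 190 in control libraries lay behind it.

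St8sia6, which acts mainly on O-linked chains of glycoproteins to give disialic ends, was at 0.445, 0.454 and 0.375 FPKM in triple-deficient libraries 1, 2 and 3, against 0.262, 0.423 and 0.550 FPKM in control libraries 1, 2 and 3. The controls enclosed all 3 triple-deficient values. Only with no filter could it be tested, where its change was 0.02 (SE 0.077, 95% interval -0.17 to 0.20, limma adjusted p = 0.984). The scale understates changes and their spread at this level too. With the pseudocount of 0.1 FPKM, a setting chosen after seeing the data, the change was 0.074 with a wider SE of 0.243. An estimated 52 to 94 fragments in triple-deficient and 45 to 98 in control libraries lay behind these values.

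Relative levels of functionally linked genes were compared within each library. A plain ratio of FPKM does not depend on the scaling between libraries, whereas the tested log2 ratios, with 1 FPKM added to each gene, still do in part. St8sia2 stood at 8.80, 10.3 and 7.68 times the FPKM of St8sia4 in triple-deficient libraries 1, 2 and 3, against 9.20, 10.4 and 9.37 times in control libraries 1, 2 and 3. St8sia2 was thus the prevailing polysialyltransferase transcript in both genotypes, by at least 7.68 times in every library. The tested log2 ratio was 2.19 ± 0.13 in triple-deficient and 2.24 ± 0.03 in control libraries (SD, n = 3; two-sided exact permutation p = 0.9). The difference was -0.053, and it was -0.107 with a pseudocount of 0.1 FPKM (exact permutation p = 0.4).

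St8sia1 stood at 0.537, 0.629 and 0.675 times the FPKM of St8sia5 in triple-deficient libraries 1, 2 and 3, against 0.590, 0.577 and 0.563 times in control libraries 1, 2 and 3. The triple-deficient libraries lay on both sides of the controls, and the log2 ratios were -0.59 ± 0.15 and -0.67 ± 0.03 (SD, n = 3; exact permutation p = 0.5). St8sia1 also stood at 0.0877 to 0.0930 times the FPKM of St3gal5, the GM3 synthase that makes its lipid substrate, in triple-deficient libraries, and at 0.0800 to 0.0975 times in controls (exact permutation p = 0.8, n = 3 each). After adjustment over these 3 ratios each exact p was 0.9, and 3 against 3 libraries cannot give less than 0.1. The triple-deficient SD was wider than that of the controls in the first 2 ratios and narrower in the last, at 0.03 against 0.13.

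The members' values varied little between libraries. Over all 6 libraries the coefficient of variation was 4.4% for St8sia1, 4.6% for St8sia3, 5.1% for St8sia2 and 8.5% for St8sia5. It was 10.8% for St8sia4 and 22.9% for St8sia6, the 2 genes with the fewest fragments. Within groups, the SD on the log2(FPKM + 1) scale was 0.056 for St8sia1, 0.073 for St8sia2, 0.054 for St8sia3 and 0.109 for St8sia5, against a median of 0.092 over 4358 genes with a mean of 3 to 12 FPKM. St8sia5 was the only one of these 4 members above that median.

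Triple-deficient 3 was the lowest of all 6 for St8sia5 and St8sia2, the members with the highest GC content (54.8% and 50.0%), and the highest of all 6 for St8sia3 (43.9%). It lay 0.24 below the mean of the other 5 libraries on the log2(FPKM + 1) scale for St8sia5, with a deviation of -0.12 for St8sia2, 0.10 for St8sia3 and 0.08 for St8sia4. The deviation was -0.04 for St8sia1 (45.5% GC) and -0.05 for St8sia6 (41.2% GC), and triple-deficient 1 lay higher than triple-deficient 3 for St8sia4, the member with the lowest GC content, so the members did not follow GC content in strict order. With each library's trend over GC content and transcript length removed, the change was -0.09 for St8sia5 and 0.02 for St8sia3, against -0.10 and 0.06 without that step. For St8sia1 it moved away from 0, to -0.054 against -0.021. How much of the spread comes from base composition was not tested further.

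**Figure D2:**
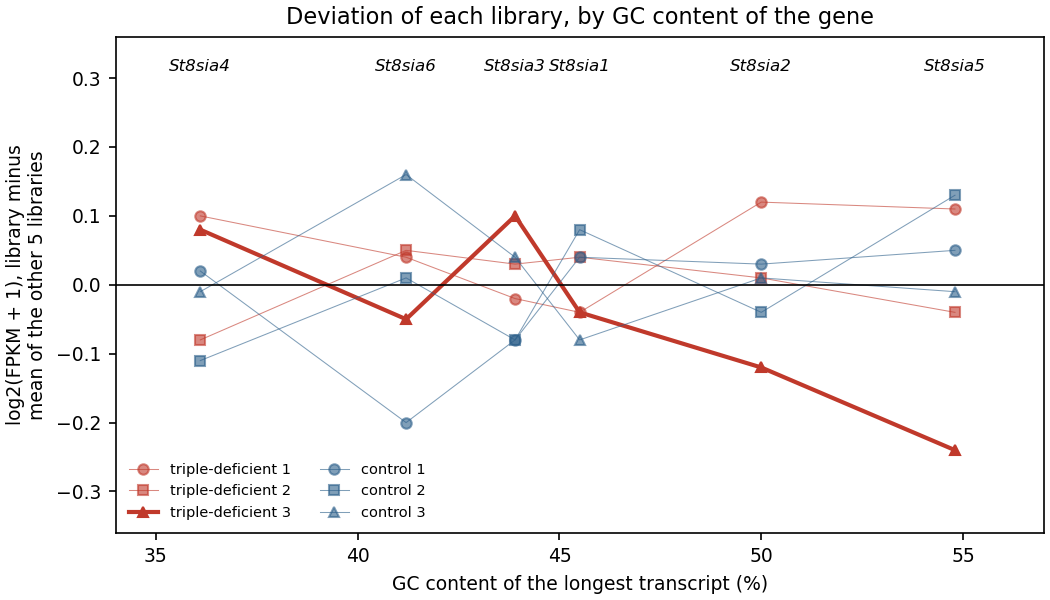
Deviation of each library from the mean of the other 5, on the log2(FPKM + 1) scale, for the 6 genes placed by the GC content of their longest transcript (triple-deficient red, control blue, 1 marker shape per replicate number). Lines only join the points of a library. Triple-deficient 3, the thick line, runs from 0.08 at St8sia4 to -0.24 at St8sia5. The line does not fall steadily, with -0.05 at St8sia6 and 0.10 at St8sia3.

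The donor of these enzymes is made by a short route. Gne starts sialic acid synthesis and is its rate-limiting enzyme, Nans and Nanp complete it, Cmas activates it and Slc35a1 carries CMP-sialic acid into the Golgi. Gne was at 8.78 ± 0.726 FPKM in triple-deficient and 8.91 ± 0.382 FPKM in control libraries, and Cmas at 38.6 ± 0.978 and 39.3 ± 0.420 FPKM (SD, n = 3 each). Slc35a1 was at 16.4 ± 1.02 and 16.5 ± 0.315 FPKM. Of 8 genes in the list of sialic acid supply and turnover, all tested, 0 passed limma's threshold in either direction, with a median change of -0.011. Npl, the lyase that breaks free sialic acid down, was at 6.72, 6.74 and 6.76 FPKM in triple-deficient libraries 1, 2 and 3, against 7.05, 8.18 and 8.20 FPKM in control libraries 1, 2 and 3. All 3 triple-deficient values lay below all controls, but the change of -0.18 did not pass (95% interval -0.34 to -0.03, unadjusted p = 0.028, limma adjusted p = 0.906). Cmah, which turns the acetyl form of the donor into the glycolyl form, was low, at 0.697 ± 0.097 and 0.563 ± 0.118 FPKM.

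The lipid acceptors come from Ugcg, B4galt5, B4galt6 and St3gal5, and B4galnt1, B3galt4, St3gal1 and St3gal2 extend the products. In this list 0 of 8 genes passed, all 8 were tested, and the median change was -0.010. Of these 8, 0 had an unadjusted limma p below 0.05, where 5.09% of all genes tested did. St3gal5 was at 43.7 ± 0.580 FPKM in triple-deficient and 45.1 ± 1.90 FPKM in control libraries, far above any alpha-2,8 member per length of transcript. B4galnt1, which competes with St8sia1 for GM3 and extends GD3 as well, was at 12.8 ± 0.469 and 13.3 ± 0.569 FPKM.

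Ncam1, the main carrier of polysialic acid, was at 82.5, 77.7 and 75.6 FPKM in triple-deficient libraries 1, 2 and 3, against 77.1, 75.9 and 83.1 FPKM in control libraries 1, 2 and 3. The values of the 2 groups were interleaved (change -0.002, 95% interval -0.13 to 0.12, limma adjusted p = 0.999). Cadm1, a synaptic adhesion molecule that carries polysialic acid in some glia, was at 67.3 ± 2.86 and 67.0 ± 2.06 FPKM, and Nrp2, a semaphorin receptor, at 6.17 ± 0.320 and 6.51 ± 0.188 FPKM. None of the 3 passed, and 0 had an unadjusted limma p below 0.05, where 5.09% of all genes tested did.

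Sialidases remove sialic acid again. Neu1 of the lysosome was at 12.1 ± 1.18 FPKM in triple-deficient and 11.7 ± 0.309 FPKM in control libraries. Neu3 of the plasma membrane, which acts on gangliosides, was at 4.69, 4.12 and 4.68 FPKM in triple-deficient libraries 1, 2 and 3, against 5.14, 5.26 and 4.70 FPKM in control libraries 1, 2 and 3. The groups were just separate, and the change of -0.14 did not pass (limma adjusted p = 0.946). Neu2 and Neu4 were below the filter, and Neu4 was listed at 0 in 5 of 6 libraries. Over these 4 lists together, 0 of 21 genes tested passed, 1 had an unadjusted p below 0.05 where 5.09% of all genes did, and 2, Npl and Neu3, had groups that did not overlap, a pattern found in 10.5% of all genes.

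**Figure D3:**
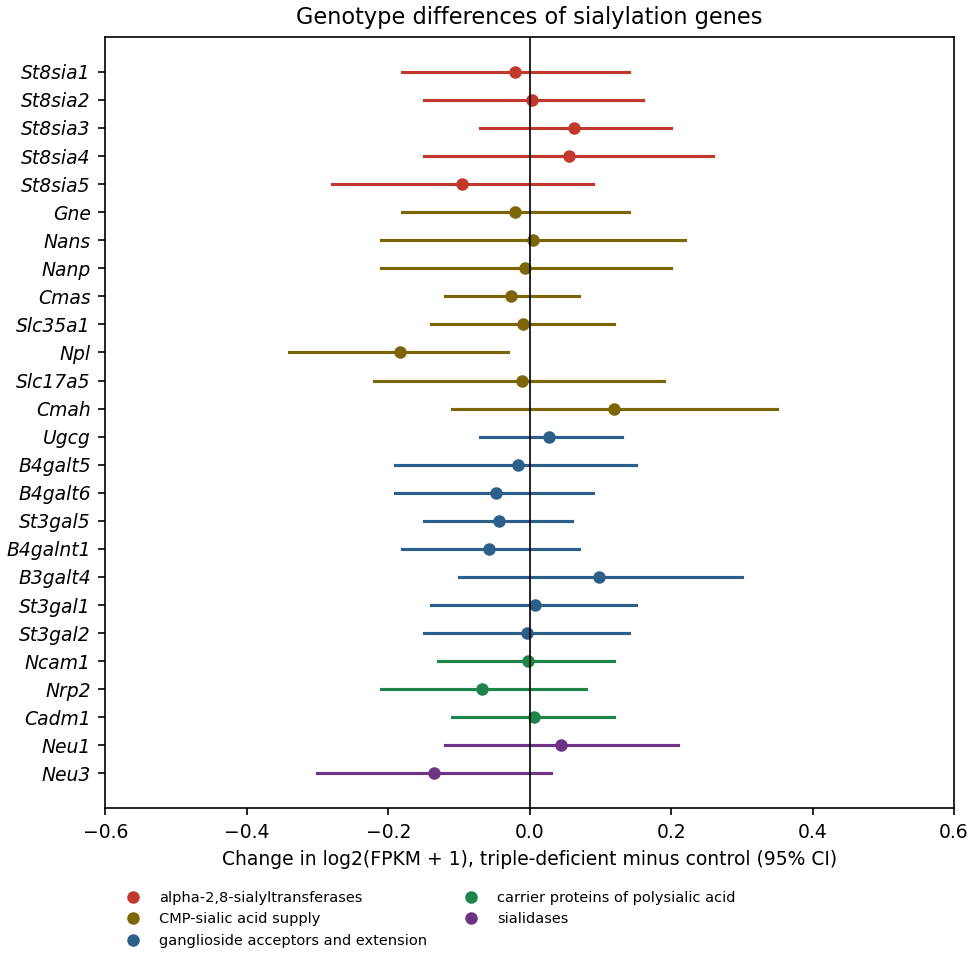
Change in log2(FPKM + 1), triple-deficient minus control, with its 95% confidence interval from limma, for the 5 tested alpha-2,8-sialyltransferase genes and 21 tested genes of 4 related lists. Points lie near 0, and Npl is the only gene whose interval (-0.34 to -0.03) does not hold 0.

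Whole retina mixes cell types, so fewer cells of a type and less RNA per cell cannot be told apart in these values. Of 66 genes tested in 14 lists of cell type markers, 0 passed limma's threshold and 5 had an unadjusted p below 0.05, where 5.09% of all genes did. Of those 5, 3 were markers of the pigment epithelium, a layer next to the retina, whose 5 tested markers had a median change of -0.605. The 7 markers of that list summed to 31.9 to 45.2 FPKM in triple-deficient and 43.1 to 54.9 FPKM in control libraries. Summed levels of 7 ganglion cell markers were 475 to 491 FPKM in triple-deficient and 469 to 521 FPKM in control libraries, and those of 6 amacrine markers 233 to 247 and 242 to 248 FPKM. The 6 markers of Müller glia summed to 1445 to 1578 FPKM in triple-deficient and 1624 to 1665 FPKM in control libraries, which did not overlap. Apoe, 1 of these 6, was at 437 to 545 FPKM in triple-deficient and 569 to 630 FPKM in control libraries, while 4 of the 6 had changes above 0 and the median change was 0.006. The part of these cell types in the members' values was not tested. The lens crystallin Cryaa reached no more than 0.109 FPKM in triple-deficient libraries and 0.129 FPKM in control 2 and control 3, while control 1 had 4.61 FPKM. Control 1 held the highest control value of St8sia2 and St8sia4 and the lowest of St8sia6, and its lens signal was not tested against these values.

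By pattern over the 6 libraries, the genes most like each of the 4 higher members were sought in the genes averaging 5 FPKM or more, by Pearson correlation of log2(FPKM + 1). For St8sia1 these were Chrnb2, a nicotinic receptor subunit (r = 0.990), and Drg2 (r = 0.989). For St8sia2 they were Crtac1 (r = 0.989) and Arhgef18 (r = 0.989), and for St8sia3 Cse1l (r = 0.996) and Phax (r = 0.995). For St8sia5 they were Traf5 (r = 0.997) and Coro1a (r = 0.987). Each is the best of 9832 or 9833 genes over only 6 libraries that share depth and base composition trends, so these values are a description of the libraries.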

How the data were processed

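RNA from freshly isolated retinas was made into stranded mRNA libraries (TruSeq), per the labels' protocols. The deposited values are FPKM, 1 per gene symbol and library. The submitters' processing notes name, without roles, Cufflinks 2.2.1, Cuffdiff, Bowtie2 2.3.5.1 and TopHat2 2.1.1, and the build mm10. How libraries were scaled and which annotation was used is not given in the sources used here.

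FPKM were used as deposited. Genes averaging 0.5 FPKM or more were tested on log2(FPKM + 1) with limma 3.58.1 in R 4.3.3, with its trended shrinkage, two-sided, adjusted by Benjamini-Hochberg over all 14325 genes, with a threshold of 0.05. The method was checked on simulated data. Depth was estimated from the steps of low values of genes with 1 annotated transcript (GENCODE M21). Fragment numbers are estimates, so no counts were rebuilt. GC content and length were known for 99.3% of genes tested. Alternatives covered pseudocount, filter, scaling, shrinkage, library weights, replicate block, GC trends and leaving out each library.

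The members and lists were chosen with earlier results of these data known. Genes named are the members, the genes of 4 related lists, the targeted genes and, per member, the 2 genes most like it. Opn1sw, Gnat1, Apoe, St8sia3os and Cryaa were added after their values were seen.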

Additional observations from a re-analysis of the deposited data

How the results depend on the processing

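Over 102 recomputed changes of single members, 0 passed limma's threshold, and the counts of members and of genes in the related lists past it stayed at 0 in each of 19 alternatives. With trends of GC content and length removed, with or without the replicate block, the change was -0.001 for St8sia2 and -0.003 for St8sia4, opposite in sign to 0.003 and 0.056. Leaving out 1 library gave -0.059 to 0.007 for St8sia1, -0.045 to 0.054 for St8sia2, 0.038 to 0.097 for St8sia3, 0.025 to 0.103 for St8sia4, -0.164 to -0.021 for St8sia5 and, with no filter, -0.061 to 0.088 for St8sia6. St8sia6 with no filter and those trends removed was at -0.020, and the settings that pair no filter with a second choice were chosen after seeing the data. Without 1 library, differences of log2 ratios ran from -0.103 to 0.018 for St8sia2 to St8sia4, from 0.011 to 0.154 for St8sia1 to St8sia5 (0.154 without triple-deficient 1, exact permutation p = 0.1, the smallest it can give) and from -0.043 to 0.083 for St8sia1 to St3gal5. Genes past the threshold numbered 2 with no filter, 2 with robust shrinkage and 3 to 11 without 1 library (7 without control 3, 10 without triple-deficient 1, 11 without triple-deficient 3), against 4. For the reversals and these counts the cause was not tested. Same-numbered libraries of the 2 groups had deviations correlated at 0.022, 0.114 and 0.067, and differently numbered ones at -0.195 to 0.12. The deviations were taken within each small group, so these values cannot settle whether the numbers mark pairs. No label says that they do, so the numbers were not taken as pairs. With the replicate block 4 genes and 0 members passed. The fewest estimated fragments lay behind St8sia6 and St8sia4, and whether depth sets their spread was not tested.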
